A study of Homo sapiens with 2 samples.

Results

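U3 small nucleolar RNA is annotated at many places in the human genome, and 8 of the 63494 features in the count tables were examined for it: 5 in a repeated stretch of chromosome 17 where RefSeq places several U3 genes, and SNORD3G, SNORD3J and SNORD3E on chromosomes 1, 10 and X. The 5 chromosome 17 features are CHM13_G0023424, CHM13_G0023426, CHM13_G0023434, CHM13_G0023435 and CHM13_G0023436. The 8 were picked by their identifiers with their values already known, among them the very high counts of a chromosome 17 pair in the Ku80 library, so their levels and ratios are given as a description with no test. The files pair no feature with a gene name. SNORD3G, SNORD3J and SNORD3E were identified by gene order and length against RefSeq on GRCh38.p14, and no chromosome 17 feature is called a U3 gene here, because the order of the features in that stretch differs from RefSeq's.

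The libraries come from HEK293T, an established human line of embryonic kidney origin. Both lines, stable ones per the labels, received 0.1 mM of the photoreactive nucleoside 6SG and 0.4 J/cm2 of UV at 365 nm, and RNA was purified over streptavidin and then Flag resin (PAR-CLIP, in which UV joins proteins in living cells to the RNAs they are in contact with). One line expressed SFB-Ku80, the Ku80 subunit of the DNA-end-binding Ku heterodimer with the SFB affinity tag, and the other the SFB empty vector. The labels name no change to the endogenous Ku80 gene in either line, and the tag alone was the only control. With 1 library each, called the Ku80 library and the vector library, no difference has a replicate check and no p-value is given.

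U3 is a box C/D small nucleolar RNA, but unlike most RNAs of its class it does not guide methylation. It base-pairs with the 5′ external transcribed spacer and with the small-subunit rRNA inside pre-rRNA, and as the core of the small-subunit (SSU) processome it is needed for the early cleavages that free the precursor of the small-subunit rRNA. Fibrillarin, NOP56, NOP58 and SNU13 form the protein core shared by box C/D particles, and RRP9 binds U3 in particular. U3 is transcribed by RNA polymerase II from promoters of its own, from several gene copies that are nearly alike.

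A count is a read assigned by featureCounts, with a read that maps to several places counted at each of them, and there were 19775629 counts in the vector library and 17892815 counts in the Ku80 library. Where 2 values stand together with no library named, the vector library comes first. A second table holds uniquely mapped read pairs, 6062669 and 1443251 of them on features, which were 20.3% and 6.51% of all read pairs. Of the read pairs, 21.5% were unmapped in the vector library and 47.1% in the Ku80 library, and 25.1% and 27.0% mapped to several places. Of the listed markers of the line, VIM had 1113 and 188 counts, KRT8 133 and 36, KRT18 235 and 44 and PAX2 223 and 272, while the leukocyte gene PTPRC had 113 and 91 and the fibroblast gene COL1A1 1104 and 78, and ALB was not analysed here. The counts are shares of a library and not amounts of RNA purified, and more cells with an RNA and more RNA per cell cannot be told apart. Intervals are exact (Clopper-Pearson) at 95%, cover counting error only, and are too narrow even for that, since mates of a pair, placements of 1 read and PCR copies without molecular identifiers are not independent.

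The 8 features together held 446369 of the counts of the vector library, a share of 2.257% (2.251 to 2.264%), and 8229805 of those of the Ku80 library, a share of 46.00% (45.97 to 46.02%). The share was 20.4-fold higher in the Ku80 library (20.3 to 20.4). Nearly all of this came from a pair of neighbouring features on chromosome 17, without which the others had 139 and 1295 counts. A read that matched both features of the pair was counted at each, so the sum can hold the same read more than once. How many reads did so was not tested. In uniquely mapped pairs, the 8 features held 821 pairs in the vector library (0.0135% of the pairs on features) and 82148 in the Ku80 library (5.69%).

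**Figure D1:**
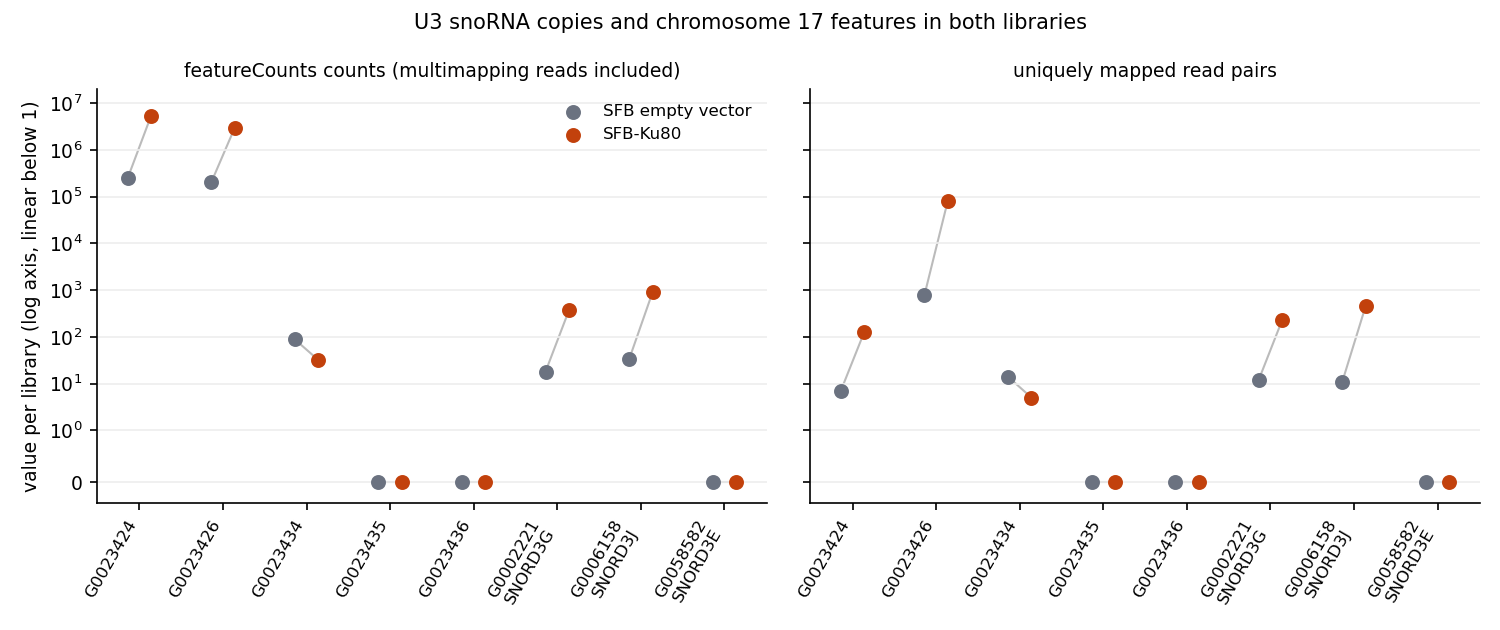
Counts (left) and uniquely mapped read pairs (right) of the 8 features on a log axis that is linear below 1, with 1 point per library, grey for the vector library and orange for the Ku80 library. The lines rise to the Ku80 library for CHM13_G0023424, CHM13_G0023426, SNORD3G and SNORD3J, CHM13_G0023434 falls from 88 to 32 counts, and 3 features sit at 0 in both libraries.

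CHM13_G0023424 lies on the plus strand at chr17:19009811-19010391 of the CHM13 draft v1.1 and is 581 bases long. It had 246323 counts in the vector library, where it ranked 7 among all features, and 5301079 in the Ku80 library, where it ranked 1. These were 1.25% and 29.6% of all counts, a ratio of counts of 21.5 (21.4 to 21.6). Scaled to its length, its level was 21439 counts per kilobase per 1000000 counts in the vector library and 509929 in the Ku80 library.

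Hardly any of these reads were placed uniquely. The same feature had 7 uniquely mapped pairs in the vector library and 126 in the Ku80 library, a ratio of 18 (8.48 to 45.7). These are pairs counted without strand, and the stranded columns described below together held 144 and 1695. Behind each unique pair counted without strand there stood 35189 counts in the vector library and 42072 in the Ku80 library. The medians were 2.24 and 2.51 over features with at least 100 unique pairs in the library. Both mates of a pair can give a count, so a median near these values is that of reads placed once. The count of CHM13_G0023424 is thus mostly a count of reads that matched it and at least 1 more place.

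CHM13_G0023426, the neighbour on the minus strand at chr17:19011336-19012026, is 691 bases long and begins after a gap of 944 bases. It had 199907 counts in the vector library (rank 8, 1.01% of all counts) and 2927431 in the Ku80 library (rank 2, 16.4%), a ratio of 14.6 (14.6 to 14.7). Unlike its neighbour it also held many unique pairs, 777 in the vector library and 81329 in the Ku80 library. By unique pairs it moved from rank 1123 to rank 1, with a ratio of 105 (97.5 to 112), which was larger than its ratio of counts. That ratio holds for pairs counted without strand. The stranded columns described below together held 1850 pairs in the vector library and 91230 in the Ku80 library. The share of these left out without strand was larger in the vector library (58.0%) than in the Ku80 library (10.9%). It had 257 counts for each unique pair in the vector library and 36.0 in the Ku80 library, so the part of its reads that was placed uniquely was higher in the Ku80 library.

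By counts per length, CHM13_G0023424 was 1.47 times CHM13_G0023426 in the vector library and 2.15 times in the Ku80 library, while by unique pairs it was far below CHM13_G0023426 in both. Among all features the pair also stood next to each other in the plane of log2 counts of both libraries, 0.908 apart. The next nearest features to either of them, the snRNA genes LOC124904139 and LOC124904138 on chromosome 17, were 4.10 to 4.94 away and had fewer counts in the Ku80 library than in the vector library.

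SNORD3G (CHM13_G0002221) is a U3 copy on chromosome 1, on the plus strand at chr1:90502155-90502369, 215 bases long with no other feature over it. It had 18 counts in the vector library and 368 in the Ku80 library, a ratio of 20.4 (12.8 to 34.9). In unique pairs the values were 12 and 227, a ratio of 18.9 (10.6 to 37.2). At 1.5 and 1.62 counts per unique pair, its reads were placed uniquely for the most part. Both counters gave raw ratios within each other's interval, but these are not scaled to the library totals of each counter. As ratios of shares they were 22.6 (14.1 to 38.6) by counts and 79.5 (44.6 to 156) by unique pairs, with intervals that did not overlap.

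SNORD3J (CHM13_G0006158), a U3 copy of 190 bases on the minus strand at chr10:44296247-44296436, also stood free of other features. It rose in rank from 20739 to 683, with 33 counts in the vector library and 895 in the Ku80 library (ratio 27.1, 19.2 to 39.6). It had 11 and 461 unique pairs, a ratio of 41.9 (23.2 to 84.5). The intervals of SNORD3G and SNORD3J overlapped by either counter. Whether the copies differ in the size of the ratio was not tested.

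By counts, in which a read is entered at every place it matches, the copies outside chromosome 17 were much lower than the chromosome 17 pair. Per kilobase and 1000000 counts, SNORD3J was at 8.78 in the vector library and 263 in the Ku80 library, and SNORD3G at 4.23 and 95.7. The order of these levels per length was thus CHM13_G0023424, CHM13_G0023426, SNORD3J and SNORD3G in the Ku80 library, with SNORD3J 2.75 times above SNORD3G. In the vector library CHM13_G0023434 stood between SNORD3J and SNORD3G, at 6.99. The place of CHM13_G0023424 turned with the counter. By unique pairs per kilobase and 1000000 unique pairs in the Ku80 library, CHM13_G0023426 was at 81550, SNORD3J at 1681, SNORD3G at 732 and CHM13_G0023424 at 150, and in the vector library they were at 185, 9.55, 9.21 and 1.99. These are pairs counted without strand. In the stranded columns described below, CHM13_G0023424 had 1695 pairs against 126 in the Ku80 library, and 144 against 7 in the vector library. Its low place is therefore given for the unstranded column only, and levels per length in the stranded columns were not computed.

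For comparison with all other features, each log2 ratio of the Ku80 library to the vector library was set relative to the median feature, after adding 1 to each count. The median was taken over 17670 features with at least 100 counts in the libraries together, and its own raw log2 ratio was -1.42, so a feature at the median had fewer counts in the Ku80 library. Of the features, 8.15% lay at least 4-fold above the median. Of the 8 members, 5 had at least 100 counts and 4 of these lay past that fold, with log2 values of 6.14 for SNORD3J, 5.85 for CHM13_G0023424, 5.70 for SNORD3G and 5.29 for CHM13_G0023426. By unique pairs, where 10.2% of 10217 features lay past the same fold and the median raw log2 ratio was -2.41, the same 4 were past it, at 7.67, 6.39, 6.54 and 9.11. Since this contrast was known when the members were chosen, and since a copy that is low in the vector library passes the filter only through the Ku80 library, these counts do not bear on how unusual the members are.

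**Figure D2:**
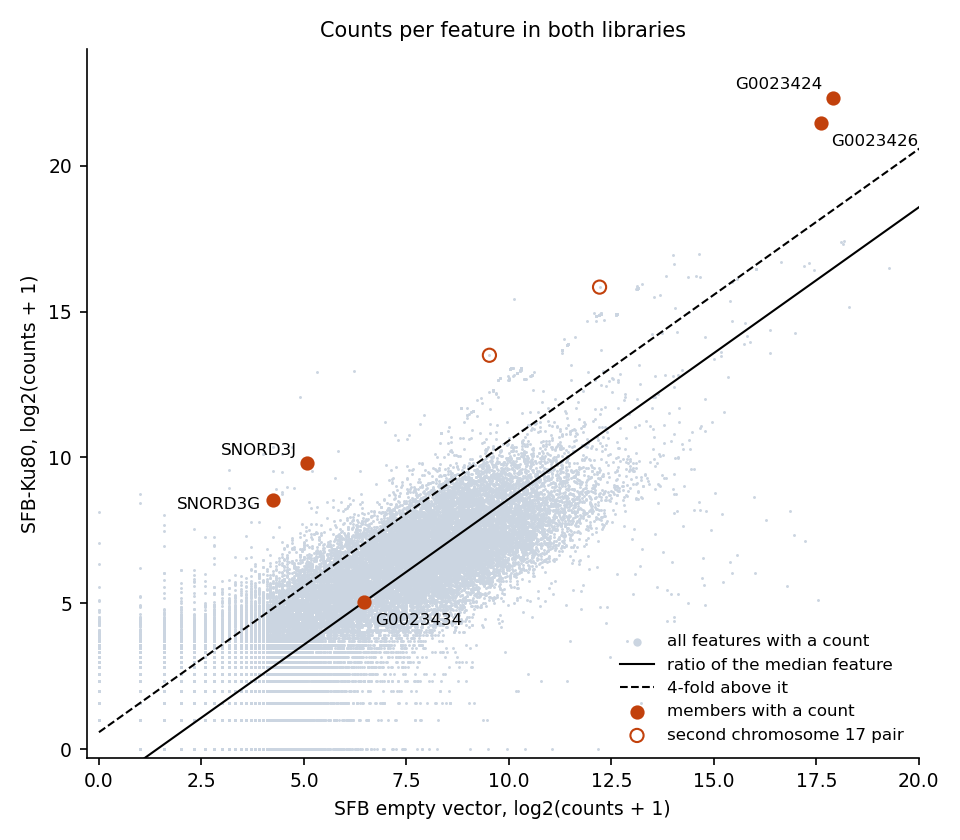
Each point is a feature, at log2(counts + 1) in the vector library (horizontal) and in the Ku80 library (vertical), with the ratio of the median feature (solid line) and 4-fold above it (dashed line). CHM13_G0023424 and CHM13_G0023426 stand alone at the upper right, SNORD3G and SNORD3J lie above the dashed line at low counts, CHM13_G0023434 lies on the solid line, and open circles mark the second chromosome 17 pair.

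The features nearest to SNORD3G and SNORD3J in both libraries were of mixed kinds. For SNORD3G they were LOC124904669, a snoRNA gene of 216 bases with 21 and 425 counts, PVALB (21 and 445), which encodes the calcium-binding protein parvalbumin, and the unnamed CHM13_G0022622 (19 and 481). Those of SNORD3J were TMEM273 (36 and 742), LOC124901508, a snoRNA gene of 213 bases with 25 and 1310 counts, and PLPPR1 (21 and 728). PLPPR1 had 1 and 0 unique pairs and TMEM273 had 8 and 7, against 13 and 676 for LOC124901508. Of the features nearest to SNORD3J, only the snoRNA gene thus had more unique pairs in the Ku80 library. Among those nearest to SNORD3G, the snoRNA gene LOC124904669 (11 and 298) and the protein-coding PVALB (7 and 198) both had more. CHM13_G0022622 had 4 and 4.

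The other 3 members on chromosome 17 did not share the high counts of the pair. CHM13_G0023434, on the plus strand at chr17:19087444-19088080, begins 77.633 kb after the start of CHM13_G0023424 and is 637 bases long. It had 88 counts and 14 unique pairs in the vector library and 32 counts and 5 unique pairs in the Ku80 library, a ratio of counts of 0.364 (0.235 to 0.551). That put it at -0.01 on the log2 scale relative to the median feature, and the features nearest to it were DAB1, SPOCK3 and CHM13_G0053749.

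A pair of shorter members is nested in it and begins at the same base. CHM13_G0023435 (chr17:19087444-19087661, 218 bases) and CHM13_G0023436 (chr17:19087444-19087660, 217 bases), both on the plus strand, had 0 counts and 0 unique pairs in both libraries. Their lengths are within 1 base of the 217 bases that RefSeq gives each of its U3 genes in this stretch. All of their bases are shared with other features on the same strand, and a read that falls on several features was not assigned to any. The 218 shared bases of CHM13_G0023434 were closed to it in the same way, so its counts can only come from reads that touch its other 419 bases without the nested part.

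SNORD3E (CHM13_G0058582), on the minus strand at chrX:69279410-69279623, was in the same position. It is 214 bases long, and 213 of them are shared with CHM13_G0058583 on the same strand, which also had 0 counts in both libraries. It also lies inside the span of the feature identified as TEX11, a meiosis gene. A count of 0 allows up to 3 counts, or 0.152 per 1000000 counts in the vector library and 0.168 in the Ku80 library, but CHM13_G0023435 and CHM13_G0023436 have no base, and SNORD3E has 1 base, on which a read could be assigned to them, so the 0 says little about the RNA. Of all features at 0 in both libraries, 31.8% share a base with another feature, against 31.2% of all features.

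The stretch between the features identified as LOC124904114 and EPN2-AS1 holds 31 features, and the counts in it lay at few places. A second pair, not among the 8, begins 126.206 kb after the first. Its plus-strand feature CHM13_G0023441 (chr17:19136017-19136816, 800 bases) had 736 counts in the vector library and 11631 in the Ku80 library, and its minus-strand feature LOFF_G0001243 (chr17:19137651-19138225, 575 bases) had 4746 and 58783. On the log2 scale relative to the median feature they lay at 5.40 and 5.05, beside 5.85 and 5.29 for the first pair. By unique pairs the pairs differed more, with ratios of 2.78 (1.70 to 4.70) for CHM13_G0023441 and 6.08 (5.80 to 6.37) for LOFF_G0001243, against 18 and 105 for CHM13_G0023424 and CHM13_G0023426.

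The layouts of the pairs were also alike. Each has a plus-strand feature followed by a minus-strand feature, with gaps of 944 and 834 bases and outer spans of 2216 and 2209 bases. Every feature of the pairs is longer than a RefSeq U3 gene, by 364 bases for CHM13_G0023424, 474 for CHM13_G0023426, 583 for CHM13_G0023441 and 358 for LOFF_G0001243. In unique pairs the minus-strand feature was the higher of the pair at both places, with 12575 for LOFF_G0001243 and 64 for CHM13_G0023441 in the Ku80 library, beside 81329 and 126 for CHM13_G0023426 and CHM13_G0023424.

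Outside the pairs and the nested members, the other 24 features of the stretch had 1670 counts in the vector library and 1769 in the Ku80 library. That is a ratio of 1.06, where the raw log2 ratio of the median feature was -1.42. CHM13_G0023420 alone had 1079 and 1372 of these counts. Of the 24, 4 had at least 100 counts, and 2 of the 4 lay at least 4-fold above the median feature, where 8.15% of all features tested lay. They were CHM13_G0023423 (35 and 99 counts) and CHM13_G0023433 (35 and 94), which are equal in length at 2673 bases and had no unique pair. The high counts thus followed the pairs and not the stretch as a whole.

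**Figure D3:**
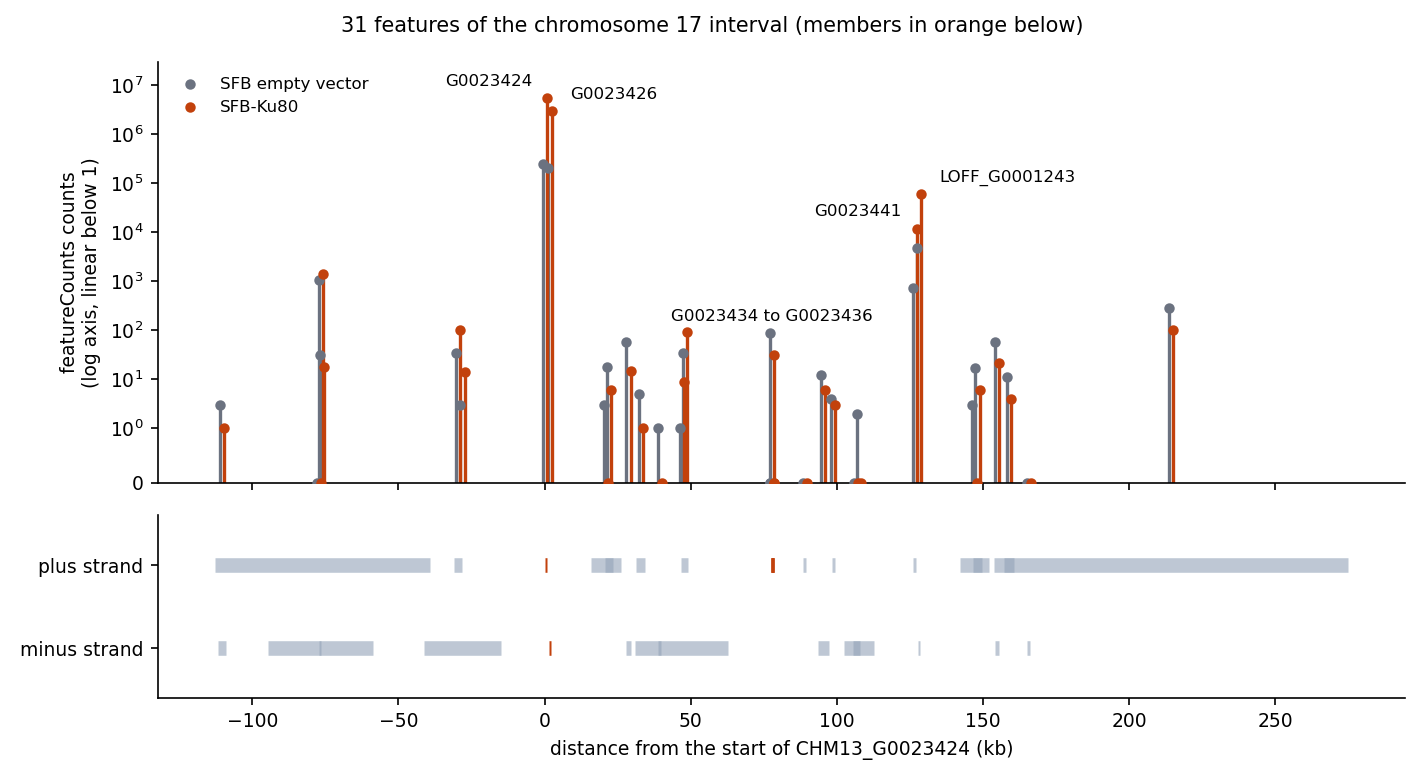
Counts of the 31 features of the chromosome 17 stretch in both libraries (upper panel, log axis that is linear below 1, each library shifted slightly sideways for legibility) and the extent of the features on each strand (lower panel, the 5 members in orange), by distance in kb from the start of CHM13_G0023424. The highest points are the first pair at 0 kb and the second pair at 126.206 kb, both higher in the Ku80 library.

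The strand columns were among the values in view when the members were chosen, so they too are a description. The table of unique pairs has a column for each strand setting, and in both libraries most pairs of most features fell in the second (median share 82.8% over 8802 features with at least 100 unique pairs in the vector library, and 76.8% over 2122 in the Ku80 library). For SNORD3G 12 of 12 pairs in the vector library were in the second column and 223 of 227 in the Ku80 library (98.2%, 95.5 to 99.5%). For SNORD3J the second column held 7 of 11 pairs in the vector library (63.6%, 30.8 to 89.1%) and 452 of 461 in the Ku80 library (98.0%, 96.3 to 99.1%). In the Ku80 library the reads of both copies therefore came from 1 strand nearly throughout, the same one for each relative to its annotation.

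The chromosome 17 pair was less uniform. CHM13_G0023426 had 46.1% of its stranded pairs in the second column in the vector library (43.8 to 48.4%, 1850 pairs in both columns) and 89.9% in the Ku80 library (89.7 to 90.1%, 91230 pairs), while CHM13_G0023424 went the other way, from 75% (67.1 to 81.8%, 144 pairs) to 39.9% (37.6 to 42.3%, 1695 pairs). The intervals of the libraries did not overlap for either feature, with 1 library each. LOFF_G0001243, of the second pair, had 91.5% and 98.0%.

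Many pairs of CHM13_G0023424 and CHM13_G0023426 were counted in a stranded column but not without strand. Such pairs were 95.1% of those in the stranded columns for CHM13_G0023424 in the vector library and 92.6% in the Ku80 library. For CHM13_G0023426 they were 58.0% and 10.9%. Over all features with at least 100 unique pairs in the library, the median was 0.325% and 0.328%. SNORD3G, SNORD3J and CHM13_G0023434 had none. No feature in the tables overlaps either member of the pair. In the Ku80 library the first column of CHM13_G0023424 held 1018 pairs, and so did that of CHM13_G0023418, a long feature of the plus strand that ends before it and had 2 unique pairs without strand. Whether these are the same pairs was not tested.

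**Figure D4:**
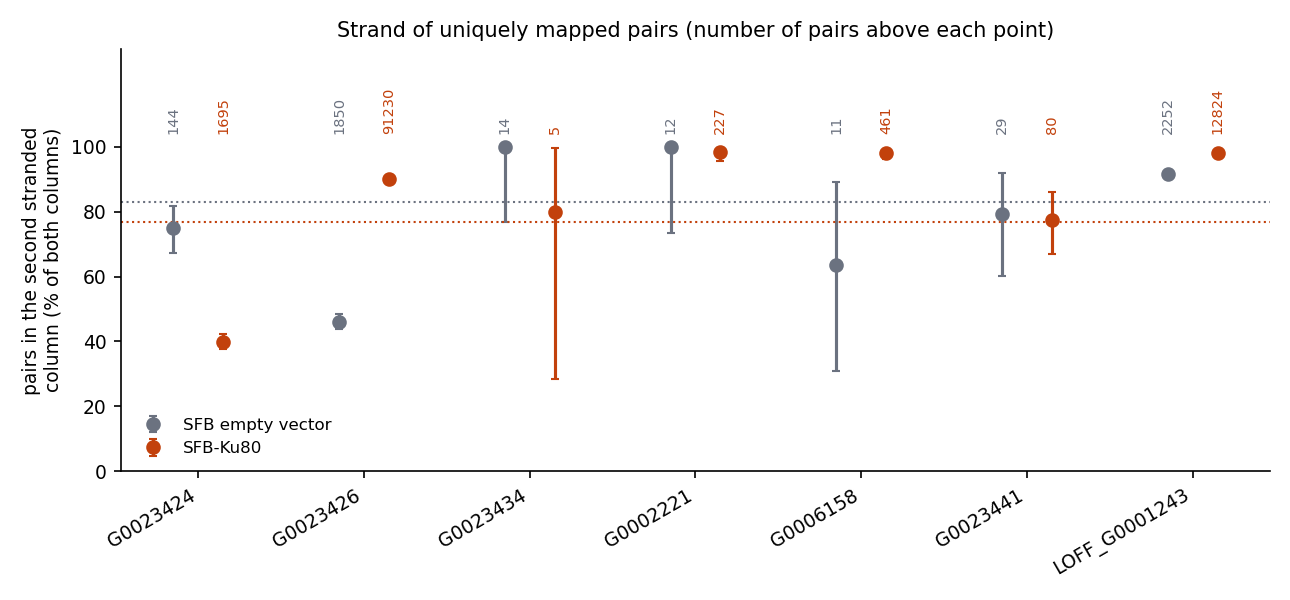
Share of uniquely mapped pairs in the second stranded column, in percent of both columns, for the 5 members with unique pairs and the second chromosome 17 pair, with exact 95% intervals for counting error and the number of pairs above each point. Dotted lines are the medians over features with at least 100 unique pairs. SNORD3G (G0002221) and SNORD3J (G0006158) stand near 98% in the Ku80 library, while CHM13_G0023424 is lower in the Ku80 library than in the vector library and CHM13_G0023426 is higher.

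The RNAs that encode the protein partners of U3 were not high in the Ku80 library. All 5 mRNAs of the box C/D particle list had enough counts, 0 were at least 4-fold above the median feature and 2 were at least 4-fold below it, where 8.64% of the features with at least 100 counts lay. FBL, which encodes the methyltransferase fibrillarin, had 2372 counts in the vector library and 146 in the Ku80 library (log2 relative to the median feature -2.59), and NOP56 had 6151 and 483 (-2.25). By unique pairs, where 3.86% of the features lay at least 4-fold below the median, neither did, with FBL at -1.81 and NOP56 at -1.33. NOP58 lay at -1.43 and SNU13 at -0.61. RRP9, the U3-specific protein, had 1323 and 981 counts and lay at 0.99, but at -0.01 by unique pairs.

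Of the 32 SSU processome proteins listed, 24 were identified among the features and all 24 had enough counts. None of them lay at least 4-fold above the median feature, 6 lay at least 4-fold below it, where 8.64% of all features tested lay, and 23 of 24 had a value under 0, with a median of -1.11 and a range from -3.83 for UTP15 to 0.02 for UTP20. By unique pairs the median was -0.39, 7 of 24 were above 0, 0 were 4-fold above and 0 were 4-fold below, with UTP15 at -0.52. The median feature is 0 by construction on this scale, and the median of the 5 members with enough counts was 5.70.

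Of 11 other RNAs of pre-rRNA processing listed, 8 were identified and 3 had enough counts. All 3 lay above the median feature by both counters, by unlike amounts. By counts 1 of the 3 lay at least 4-fold above it, where 8.15% of all features tested lay. By unique pairs 2 of the 3 did, where 10.2% lay. SNORD13 (U13), which pairs with the small-subunit rRNA and is thought to guide its acetylation, had 128 counts in the vector library and 855 in the Ku80 library, a log2 value of 4.15 (21 and 372 unique pairs, 6.49). SNORA73B, a copy of the H/ACA snoRNA U17 that acts in cleavage rather than modification, had 43306 and 42383 counts, at 1.39, and by unique pairs 2.32, past the 4-fold line. SNORD14A, a copy of the box C/D snoRNA U14, had 425 and 163 counts and lay at 0.04, and at 0.83 by unique pairs. SNORD14B, SNORD14C, SNORD14D, SNORD22 and SNORA73A were at 0 in both libraries, and SNORD118 (U8), SNORD14E and RMRP were not analysed here. Whether the features at 0 share bases with others, as the members at 0 do, was not tested. Their 0 is therefore not read as absence of the RNA.

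**Figure D5:**
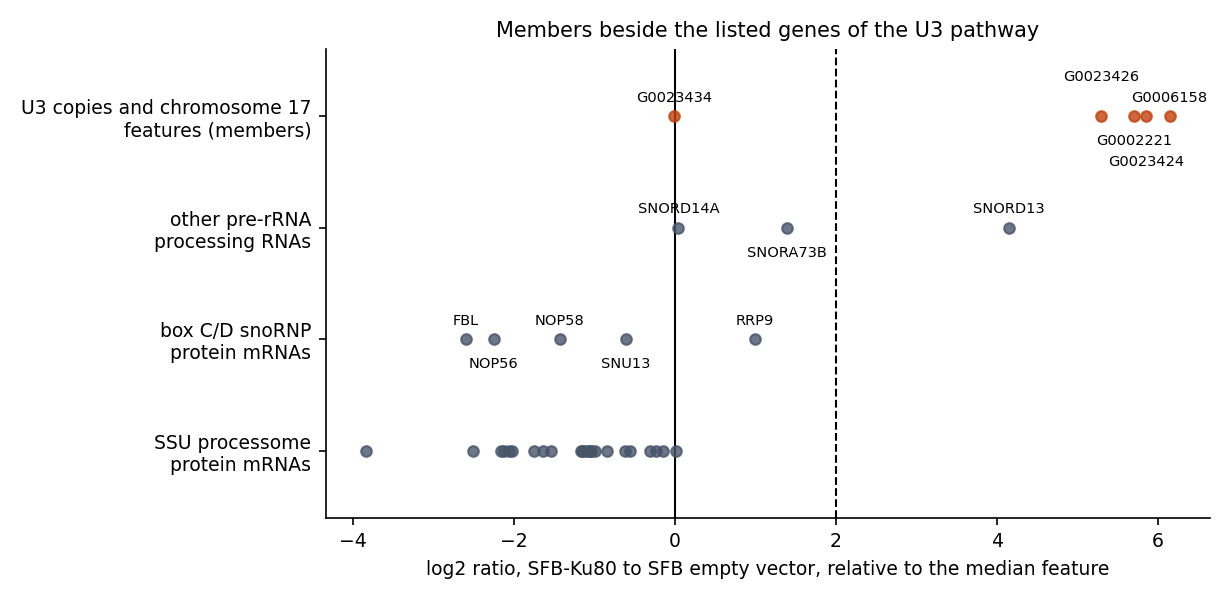
Log2 ratio of the Ku80 library to the vector library relative to the median feature (0, solid line) for the 5 members with at least 100 counts (orange) and the listed genes of the U3 pathway (grey), 1 point per feature, with the dashed line 4-fold above the median feature. The 4 high members lie from 5.29 to 6.14, SNORD13 is the nearest of the listed genes at 4.15, and no listed protein mRNA reaches the dashed line.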

How the data were processed

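PAR-CLIP libraries of HEK293T cells with SFB-Ku80 or the SFB empty vector (1 each) were grouped by their labels. The authors deposited counts per feature made with featureCounts 2.0.2 from STAR 2.7.6a alignments to CHM13 (versions from the submitters' processing notes, draft v1.1 from the table headers), unstranded, counting multimapping reads at every place, requiring both mates and fragments of at least 18 bases, and leaving reads on several features unassigned. Counting of pairs was not requested, so mates are counted singly. The authors also deposited STAR counts of uniquely mapped pairs, unstranded and per strand. Its summary rows (unmapped, multimapping, no feature, ambiguous) were kept out of all feature totals. The deposited rDNA bin signal was not used here.

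The 8 members and all gene lists were chosen with earlier results of these data known. Named genes were all members, the features of the chromosome 17 stretch, the 3 features nearest to each member with at least 100 counts (Euclidean distance in log2(counts + 1) of both libraries), and fixed lists of U3 partner proteins and pre-rRNA processing RNAs. Log2 ratios used a pseudocount of 1 and were taken relative to the median of features with at least 100 counts. A feature was called past 4-fold. Of 63494 features, 25098 were paired with RefSeq names of GRCh38.p14 by gene order and length, 20283 within 0.5% of length, or 1 base where that is more, with at least 5 of 6 neighbours in support and 4815 between such neighbours (at least 2000 bases, within 5%). The scripts were tested on simulated data. Python 3.11.15, scipy 1.17.1, edgeR 4.0.16 and DESeq2 1.42.0 (the last 2 for scaling factors only) were used. Alternatives changed the counter, strand column, scaling, denominator, count minimum, pseudocount, fold and set of members.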

Additional observations from a re-analysis of the deposited data

How the results depend on the processing

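The 20.4-fold higher share of the members was 34.4 with TMM library sizes, 35.0 with median-of-ratios size factors and 36.9 with the counts outside the members as denominator. It was 420 by unique pairs, 135 by unique pairs over all read pairs, 32.1 in the first stranded column, 396 in the second and 10.3 without CHM13_G0023424 and CHM13_G0023426. The cause of the difference between counters was not tested. The direction was the same in all of these. Of the members, 4 lay at least 4-fold above the median feature by counts, by unique pairs and in the second column. The number was also 4 with at least 10 counts or no minimum, with a pseudocount of 0.5 and at 2-fold or 8-fold. It was 2 in the first column and with at least 1000 counts, where only CHM13_G0023424 and CHM13_G0023426 had enough reads. Of all features tested, the share past 4-fold ran from 7.16% in the second column to 18.1% in the first. That share was 13.8% with at least 1000 counts and is not given for 2-fold or 8-fold. The members were chosen with this contrast known, so these numbers do not bear on how unusual they are. Over the alternatives in which a member had enough reads, the log2 values ran from 4.57 to 7.12 for CHM13_G0023424, 4.02 to 9.23 for CHM13_G0023426, 4.42 to 6.74 for SNORD3G, 4.86 to 8.46 for SNORD3J and -1.29 to -0.02 for CHM13_G0023434. The sign did not change in these, and the lowest value of each came from scaling to total counts. CHM13_G0023434 had enough reads in only 4 of the alternatives. By unique pairs, with 19 in the libraries together and so below the minimum, it lay at 1.08, on the other side of 0. The median over the members was 5.70, and 7.11 by unique pairs, 7.60 in the second column and 4.42 with total counts. In the second stranded column were 48.9% of the members' stranded pairs in the vector library and 89.1% in the Ku80 library. No paired analysis was possible because there was 1 library for each condition, and no library could be left out. SNORD3G and SNORD3J had 18 and 33 counts in the vector library, which limits their ratios, and nearly all reads of CHM13_G0023424 match more than 1 place.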
